A study of Mesocricetus auratus with 14 samples.

Results

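The genes described here serve glucose uptake, sugar sensing and glycolysis in the liver, the making of fatty acids from the resulting carbon, and the transcriptional control of these steps. Of 9 genes listed for these roles, 7 had a row under their symbol in the authors' table of 10023 genes, namely Gckr, Slc2a2, Pklr, Mlxipl, Srebf1, Acly and Acaca. Fasn and Elovl6 are not analysed here. All 7 passed the expression filter, among 12166 genes tested. The genes were chosen by symbol with results of the treatment comparison known, so their differences between the groups, selected on measured values of that comparison, are given as a description: no p-value is printed for them, and the calls counted are set beside the share of all genes called and support nothing. The samples are liver RNA of golden hamsters (Mesocricetus auratus), 7 from animals treated with DC371739, a compound known by its code name, and 7 labelled control. All 14 samples, the controls included, are labelled as being on a high-fat diet. The sources used here do not give the dose, route or length of treatment, nor the sex or age of the hamsters. Nothing in the labels ties each sample to an animal of its own, so a p-value measures only how far these samples spread, which may be technical. RNA came from whole liver, in which fewer cells of a type and less RNA per cell cannot be told apart.

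In hepatocytes glucose enters through the transporter GLUT2, encoded by Slc2a2, while Gckr encodes a regulatory protein that binds sugar phosphates. Pklr encodes the liver pyruvate kinase at the end of glycolysis. Surplus carbon leaves mitochondria as citrate, from which ATP citrate lyase (Acly) makes acetyl-CoA and acetyl-CoA carboxylase 1 (Acaca) makes malonyl-CoA, the building block of fatty acids. Mlxipl encodes ChREBP, which responds to glucose metabolites, and Srebf1 encodes SREBP-1, whose liver form responds to insulin. Pklr, Acly and Acaca are textbook targets of these factors.

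The 14 libraries fell into classes by depth. There were 11 libraries with 13672589 to 16710097 counts in genes, 6 of them DC371739 and 5 control. The other 3, DC371739 replicate 7 and control replicates 6 and 7, had 22152239 to 23948628 counts. The deeper libraries held less of Gckr, Mlxipl and Srebf1 than every shallower library, an arrangement that 14.2% of the genes tested also had. Treatment differences were therefore fitted in 3 ways: on all 14 libraries, with depth class as an added term, and on the 11 shallower libraries by themselves. Values are from the first unless another is named. For the 7 genes and the pathway lists, calls made in the others are named with them. Calls of the cell type markers are given for the first fit alone. Whether preparation, sequencing or the animals set the deeper libraries apart was not tested.

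By FPKM, which scales counts for gene length and depth, the genes spanned a wide range in both groups. In DC371739 livers the medians over 7 libraries were 545 FPKM for Slc2a2, 371 for Pklr, 224 for Mlxipl, 143 for Srebf1, 129 for Gckr, 26.1 for Acly and 13.4 for Acaca. In control livers they were 457 FPKM for Slc2a2, 325 for Pklr, 293 for Mlxipl, 150 for Gckr, 143 for Srebf1, 11.5 for Acly and 10.2 for Acaca. Transporter and glycolytic transcripts thus stood above those of the regulators, and the enzymes of fatty acid synthesis were lowest. Most neighbours in this order overlapped in range. The exceptions were Pklr over Mlxipl and Gckr over Acly in DC371739 livers, and Srebf1 over Acly in control livers. Acly exceeded Acaca in 5 of 7 DC371739 libraries and in 6 of 7 control libraries.

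**Figure D1:**
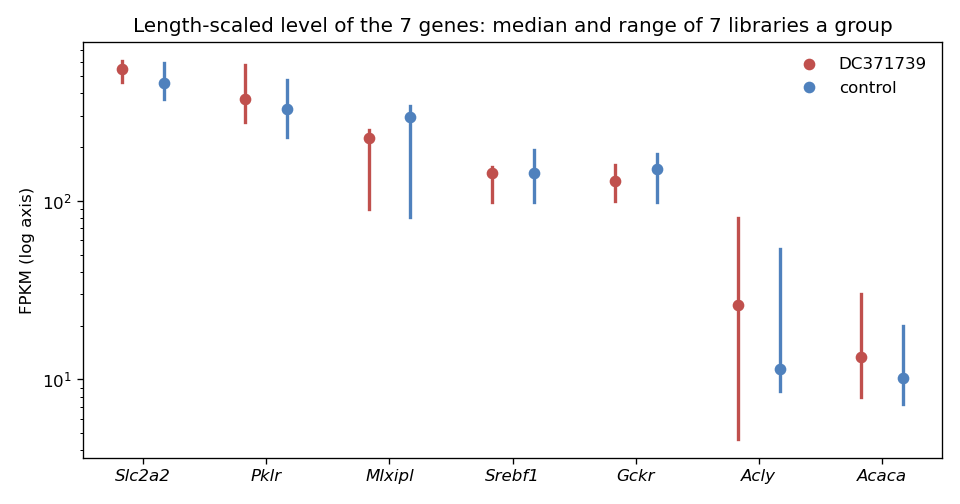
FPKM of each gene on a log axis, DC371739 in red and control in blue; points are medians and lines run from the lowest to the highest of 7 libraries. Acly and Acaca lie below the other 5 genes by median, and Acly has the longest lines.

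Slc2a2 (ENSMAUG00000005062, scaffold KB708146.1, 19137851 to 19159090, minus strand; the sources used here name no build) stood higher in most DC371739 livers. Its normalised counts (CPM, the share of a library's TMM-scaled total times 1e+06) had a lowest value of 526, a median of 622 and a highest of 695 in DC371739 livers, against 428, 524 and 666 in control livers. Each of the 7 DC371739 values exceeded the control median, while the groups overlapped. The highest controls were the 2 deeper ones, at 641 and 666 CPM, and without the deeper libraries 4 of 6 DC371739 libraries lay above the whole control range of 428 to 534 CPM.

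Gckr (ENSMAUG00000017633, KB708167.1, 6145890 to 6169155, plus strand) stood lower. Its lowest, median and highest values were 141, 188 and 232 CPM in DC371739 livers, against 141, 219 and 266 CPM in control livers. Only 1 of 7 DC371739 libraries exceeded the control median, and the groups overlapped. Over the shallower libraries the ranges were 175 to 232 CPM in DC371739 livers and 208 to 266 CPM in control livers, with 5 of 6 DC371739 libraries below every control.

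Pklr (ENSMAUG00000012808, KB708224.1, 5695413 to 5705541, plus strand) ran from 516 CPM through a median of 705 to 1100 CPM in DC371739 livers, against 426, 621 and 908 CPM in control livers. The groups overlapped widely. DC371739 replicates 2, 4 and 5, at 1100, 1029 and 983 CPM, exceeded every control.

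Mlxipl (ENSMAUG00000019597, KB708225.1, 5317341 to 5348349, plus strand) divided the libraries by class more than by treatment. It had 199, 513 and 575 CPM as lowest, median and highest values in DC371739 livers, against 184, 671 and 776 CPM in control livers. The low ends of both groups are the deeper libraries, at 199 CPM in DC371739 replicate 7 and at 214 and 184 CPM in control replicates 6 and 7. Among the shallower libraries the 6 DC371739 values, 431 to 575 CPM with a median of 524, all lay below the 5 control values, 597 to 776 CPM with a median of 683. Of 12249 genes tested in those libraries, 1144 (9.34%) likewise had groups that did not overlap.

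Srebf1 (ENSMAUG00000015988, KB708137.1, 16669094 to 16691516, plus strand) did not separate the groups. Its lowest, median and highest values were 295, 441 and 475 CPM in DC371739 livers, against 297, 440 and 595 CPM in control livers. Controls reached higher, the medians were nearly equal, and 4 of 7 DC371739 libraries exceeded the control median.

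Acly (ENSMAUG00000000465, KB708394.1, 551313 to 596882, minus strand) was the most variable of the 7 genes. It ran from 16.6 CPM through a median of 96.5 to 292 CPM in DC371739 livers, a 17.6-fold range, against 31.0, 41.6 and 197 CPM in control livers, a 6.35-fold range. The DC371739 group held both the lowest library, replicate 7, and the highest, replicate 5, so it reached beyond the controls at both ends. In 5 of 7 DC371739 libraries Acly exceeded the control median. That median, 41.6 CPM, is the value of control replicate 7, which like DC371739 replicate 7 is a deeper library.

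Acaca (ENSMAUG00000017414, KB708194.1, 3069276 to 3360897, minus strand) had a lowest value of 58.4, a median of 101 and a highest of 225 CPM in DC371739 livers, against 54.8, 76.7 and 150 CPM in control livers. The groups overlapped, and DC371739 replicates 2 and 5, at 225 and 173 CPM, exceeded every control. The span of Acaca overlaps that of Gm11437 on the opposite strand. No source used here states whether counting used strand, so reads of the pair cannot be told apart. The spans of the other 6 genes overlap no other gene in the count table.

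**Figure D2:**
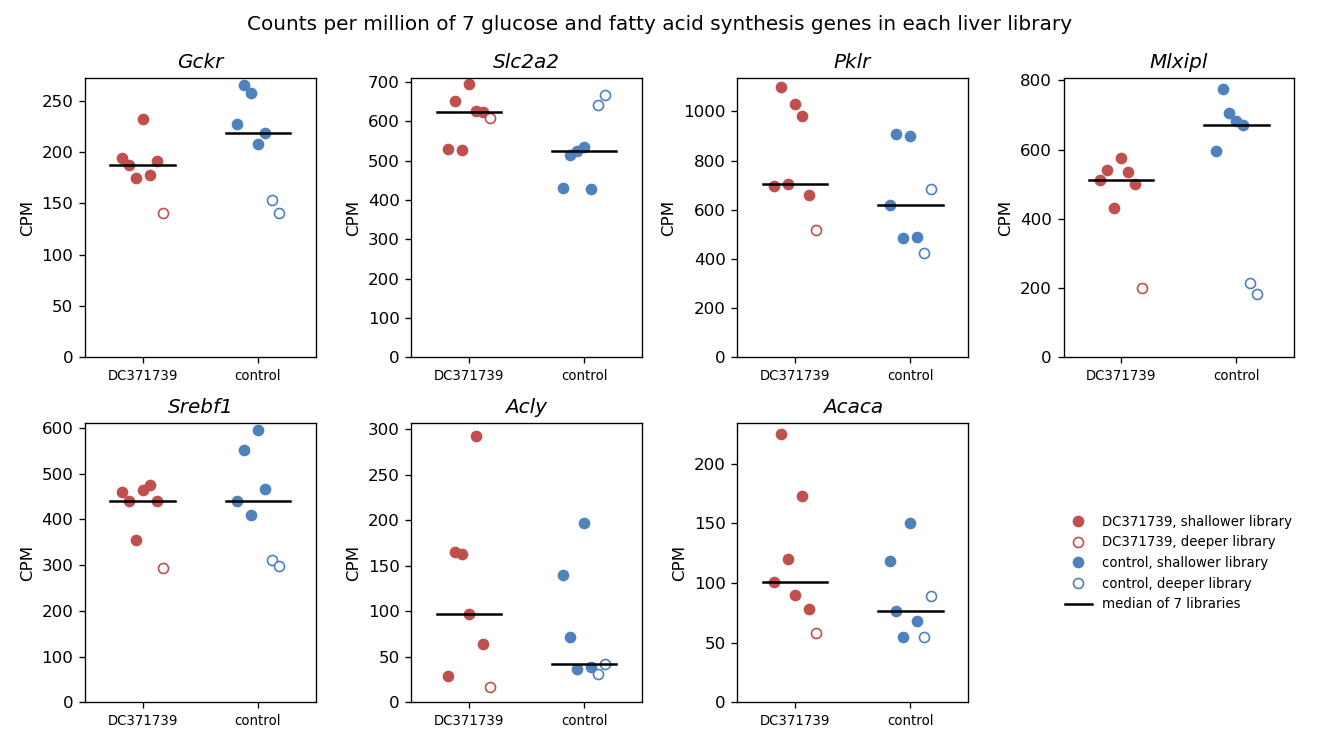
CPM of each gene in every library, DC371739 left and control right; open circles are the 3 deeper libraries, filled circles the 11 shallower ones, and lines the medians of 7. Open circles lie at the bottom for Gckr, Mlxipl and Srebf1, and the Acly points spread from 16.6 to 292 CPM in DC371739 livers.

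Fitted over all 14 libraries, 4 of the 7 genes had positive log2 fold changes of DC371739 over control and 3 had negative ones, with a median of 0.19 beside -0.02 over all genes tested. Acly had a log2 fold change of 0.57 (SE 0.56), Acaca 0.47 (SE 0.29), Pklr 0.33 (SE 0.20) and Slc2a2 0.19 (SE 0.11). Mlxipl had -0.22 (SE 0.31), Gckr -0.18 (SE 0.14) and Srebf1 -0.07 (SE 0.16). In edgeR's quasi-likelihood test 0 of the 7 had an adjusted p under 0.05, and 0 had an unadjusted p under 0.05, while 1.85% of all genes tested were called at the adjusted threshold. DESeq2 called 0 of the 7, where it called 842 of the 12166 genes tested. Limma-voom with sample weights called 1 of the 7, Slc2a2, where it called 2739 of the 12166.

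With a term for library class the log2 fold changes were -0.33 (SE 0.086) for Mlxipl, -0.24 (SE 0.080) for Gckr, 0.24 (SE 0.092) for Slc2a2, 0.26 (SE 0.19) for Pklr, -0.14 (SE 0.090) for Srebf1, 0.22 (SE 0.57) for Acly and 0.34 (SE 0.31) for Acaca. Here 1 of 7 genes was called, Mlxipl, where 12.3% of genes were called. Over the 11 shallower libraries 3 of 7 were called, where 21.5% of genes were called. These were Mlxipl at -0.41 (SE 0.086), Slc2a2 at 0.33 (SE 0.094) and Gckr at -0.28 (SE 0.089). The fold changes of Acly (0.49, SE 0.64), Acaca (0.50, SE 0.35), Pklr (0.35, SE 0.21) and Srebf1 (-0.16, SE 0.10) did not pass there either. The standard errors of Mlxipl shrank when class was taken into account, while those of Acly and Acaca, which also varied widely among the shallower libraries, did not. Acly also had a lower median in the deeper libraries, 31.0 CPM, than in the shallower ones, 96.5 CPM. The classes overlapped, at 16.6 to 41.6 CPM in the deeper and 28.7 to 292 CPM in the shallower libraries.

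The dependence on single libraries differed by gene. In the shallower libraries the log2 fold change of Mlxipl was -0.45 to -0.36 with each of the 11 left out in turn. Over all 14 libraries that of Mlxipl was -0.08 without DC371739 replicate 7, -0.11 without control replicate 2 and -0.37 without control replicate 7. The call for Slc2a2 was lost without control replicate 1 or 5. The call for Gckr was lost when any of control replicates 2 and 3 and DC371739 replicates 2, 3, 5 and 6 was left out. With the class term, the call for Mlxipl was lost without control replicate 2, 3 or 5. Over all 14 libraries, the log2 fold change of Acly was 0.16 without DC371739 replicate 5 and 0.98 without control replicate 4. With the class term, that of Acly was -0.12 without DC371739 replicate 5. That of Acaca was 0.24 without DC371739 replicate 2 over all 14 libraries, and 0.15 without it with the class term. The value for Srebf1 was 0.02 without control replicate 4 and 0.00 without DC371739 replicate 7, in place of -0.07.

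**Figure D3:**
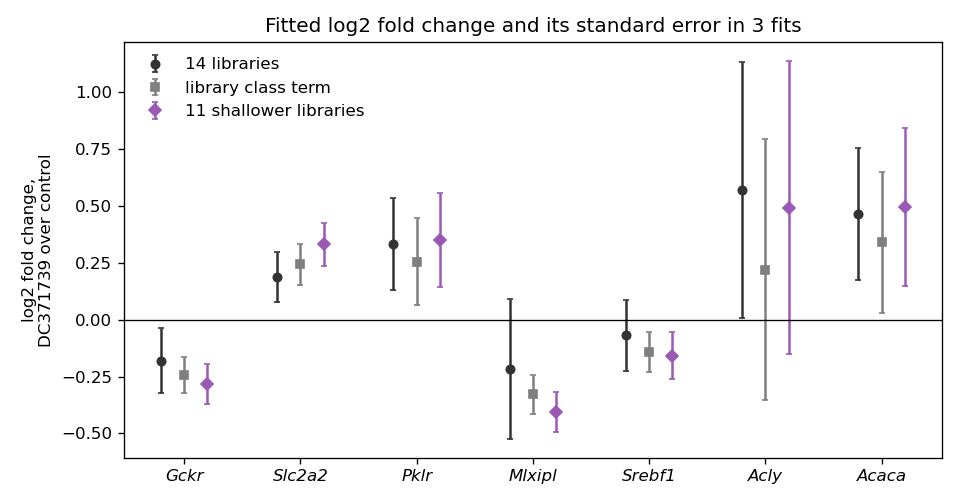
Log2 fold change, DC371739 over control, of each gene in 3 fits, with bars of 1 standard error. The points of Mlxipl, Gckr and Srebf1 lie below 0 in each fit and those of Slc2a2, Pklr, Acly and Acaca above it. Some bars cross 0, and those of Acly span most of the axis.

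Within groups, the genes differed in how far libraries stood apart. The within-group SD of log2 CPM over 14 libraries was 1.28 for Acly, larger than that of 99.8% of genes tested, and 1.14 over the shallower libraries, larger than that of 99.7%. The SD of Acaca was 0.61 over 14 libraries (above 91.9% of genes) and 0.59 over the shallower ones (above 94.7%). Mlxipl had an SD of 0.73 over 14 libraries (above 96.1%) but 0.14 over the shallower ones (above 24.9%). Both lipogenic enzymes were thus variable among libraries of 1 class, whereas the spread of Mlxipl lay mostly between classes. Pklr had an SD of 0.39 over the shallower libraries, Srebf1 0.19, Slc2a2 0.16 and Gckr 0.15, beside 0.20 for the median gene.

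Whether the genes vary together among livers of the same group was asked over the 11 shallower libraries, with each group's mean removed, which leaves the treatment difference out. Of 21 pairs, 17 had a positive Pearson's r and 4 a negative one. By a two-sided permutation test within groups, 0 pairs had an adjusted p under 0.05, by Pearson's r or by Spearman's rho, and 3 pairs had an unadjusted p under 0.05 by Pearson's r. Acly and Acaca, consecutive enzymes, had the highest r at 0.80 (permutation p = 0.00864, adjusted p = 0.0944) and a rho of 0.82 (permutation p = 0.00613, adjusted p = 0.129). Without the 2 libraries farthest from the Acly median, r was 0.88. Slc2a2 and Mlxipl had an r of 0.75 (permutation p = 0.00899, adjusted p = 0.0944) and a rho of 0.65 (permutation p = 0.0424, adjusted p = 0.194), with an r of 0.71 without the 2 farthest libraries. Pklr and Srebf1 had an r of 0.72 (permutation p = 0.0405, adjusted p = 0.162) and a rho of 0.68 (permutation p = 0.0751). Their r was only 0.39 without the 2 libraries farthest from the Pklr median. With each library left out in turn it was 0.63 to 0.79. Between Acly and the regulators, r was 0.22 for Srebf1 and -0.16 for Mlxipl, which like every other pair were not past the adjusted threshold. Whether these differ from the r of Acly and Acaca was not tested.

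**Figure D4:**
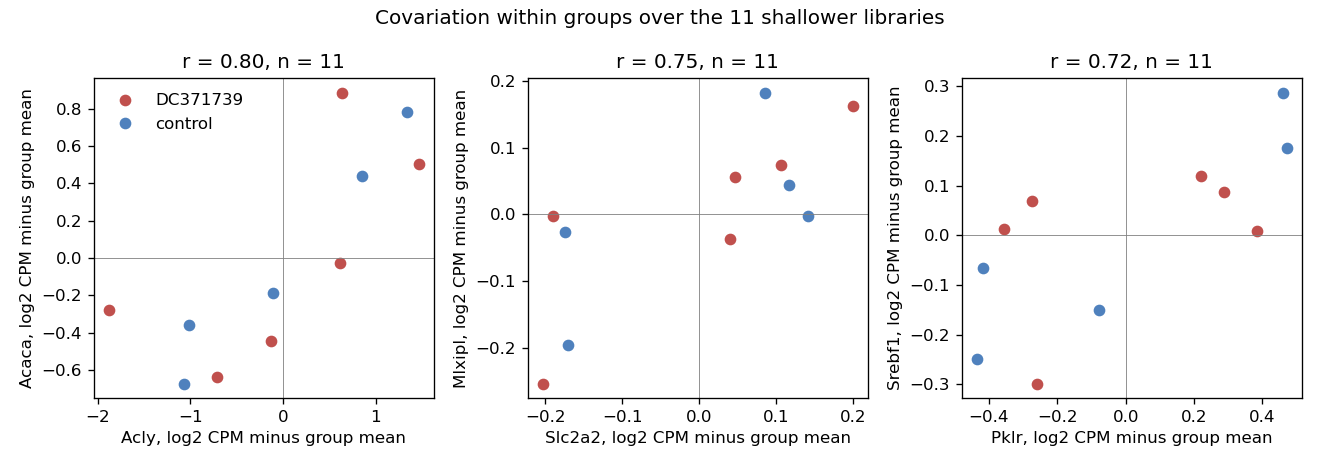
Log2 CPM minus the group mean for 3 pairs of genes over the 11 shallower libraries, DC371739 in red and control in blue. The points rise together in each panel, with r of 0.80 for Acly and Acaca, 0.75 for Slc2a2 and Mlxipl, and 0.72 for Pklr and Srebf1.

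Because Acly varied so widely, its within-group relation to 81 other genes of these pathways was computed in the same way, a step added after its spread was seen. Of these genes 49 had a positive r, 12 had an unadjusted permutation p under 0.05 and 2 had an adjusted p under 0.05. The share of all genes that would pass with Acly was not computed, so these counts do not set the pathway genes apart from others. Acsl5, an acyl-CoA synthetase, had an r of 0.86 with Acly (permutation p = 0.00021, adjusted p = 0.0170) and a rho of 0.94 (adjusted permutation p = 0.0170), with r between 0.83 and 0.92 when each library was left out. Pnpla3, a lipid droplet protein, had an r of 0.87 (permutation p = 0.00083, adjusted p = 0.0336), while its rho of 0.86 missed the threshold (adjusted permutation p = 0.0737). Without the 2 libraries farthest from the median, r was 0.89 for Acsl5 and 0.86 for Pnpla3. Next in order of p came malic enzyme Me1, with an r of 0.84 (adjusted permutation p = 0.0790), and the kinase gene Stk11, with an r of -0.84 (adjusted permutation p = 0.0790). The desaturase gene Scd1 had an r of 0.76 and the acetyl-CoA synthetase gene Acss2 an r of 0.75, both with an adjusted permutation p of 0.0922.

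Between the groups, neither of the genes that followed Acly passed the test in any of the 3 fits. Acsl5 averaged 215 ± 69.4 CPM in DC371739 livers and 166 ± 67.6 CPM in control livers (SD, n = 7 each). Pnpla3 averaged 137 ± 69.7 CPM in DC371739 livers and 78.9 ± 54.6 CPM in control livers (SD, n = 7 each), and its libraries ran from 43.3 to 251 CPM in DC371739 livers and from 27.2 to 189 CPM in control livers.

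Among 8726 expressed genes with a symbol, those with the pattern most like each of 3 members over the 11 shallower libraries were found by Pearson's r, as a description. Each group's mean was removed first. The highest r of so many genes is picked to be high, and no test was run on it. For Srebf1 they were Vtn (r = 0.96), Zfp346 (0.94) and Pdrg1 (0.93). For Mlxipl they were Cul9 (r = 0.97), Cyp4f14 (0.94) and Ccdc17 (0.91). For Pklr they were Gss (r = 0.96), Hcn3 (0.94) and Khk (0.93), the last of which encodes ketohexokinase of fructose breakdown. Hcn3 lies 362 bases from Pklr on the opposite strand.

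The other genes of the pathways gave few calls over all 14 libraries. In 5 lists taken by role, with 101 genes listed and 81 tested, 2 genes rose, 0 fell and 79 did not pass (2.47% called, beside 1.85% of all genes), with 43 positive and 38 negative fold changes and a median of 0.02. Hk1, a hexokinase found in most tissues, rose to 5.18 ± 0.60 CPM in DC371739 livers, against 3.23 ± 0.83 CPM in control livers (SD, n = 7 each). Its log2 fold change was 0.68 (SE 0.16, edgeR adjusted p = 0.0415). Every DC371739 value, 7 of 7, exceeded the control median, but the call was lost without any 1 of 10 libraries, with an adjusted p of up to 0.101. Those were control replicates 1, 2, 3, 4 and 6 and DC371739 replicates 1, 2, 3, 5 and 6. It was also lost with library size alone, without an expression filter and with replicate number as a block. Over 13 other settings its adjusted p reached at most 0.0883. Hk1 passed with the class term (edgeR adjusted p = 0.0169) and over the 11 shallower libraries (edgeR adjusted p = 0.0297). Nfyb, a subunit of the CCAAT-binding factor NF-Y that acts beside SREBPs, rose to 32.9 ± 4.79 CPM in DC371739 livers, against 22.1 ± 2.87 CPM in control livers (SD, n = 7 each). Its log2 fold change was 0.57 (SE 0.11, edgeR adjusted p = 0.0201). Its values ran from 26.1 to 37.7 CPM in DC371739 livers and from 16.8 to 25.8 CPM in control livers, so the groups stood only narrowly apart. The share of all genes with groups apart over 14 libraries was not computed. The call for Nfyb was lost without DC371739 replicate 2 or 3, with an adjusted p of up to 0.0584. It was also lost with replicate number as a block (edgeR adjusted p = 0.0571). Nfyb passed with the class term (edgeR adjusted p = 0.00425) and over the 11 shallower libraries (edgeR adjusted p = 0.00347).

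**Figure D5:**
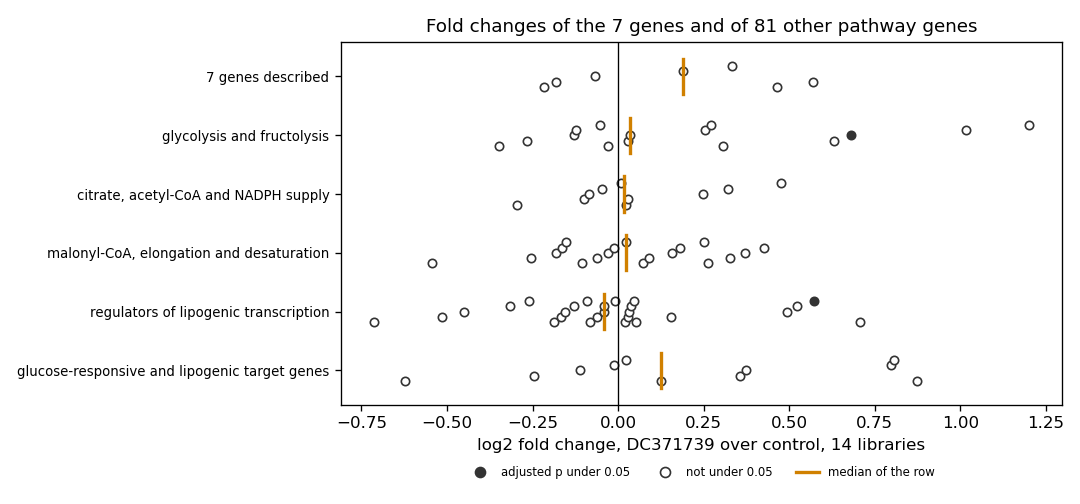
Log2 fold changes, DC371739 over control, over 14 libraries for the 7 genes and for 81 other genes in 5 lists; filled points have an adjusted p under 0.05 and orange lines are medians. Filled points are Hk1 and Nfyb, and the medians of the 5 lists lie between -0.04 and 0.13.

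In glycolysis and fructose breakdown, 1 of 15 genes tested rose and 0 fell (6.67% called, beside 1.85% of all genes), with a median log2 fold change of 0.04. Pfkfb3, which makes an activator of glycolysis, averaged 21.3 ± 8.44 CPM in DC371739 livers and 9.19 ± 4.0 CPM in control livers (SD, n = 7 each). Its log2 fold change of 1.20 missed the threshold (SE 0.30, edgeR adjusted p = 0.0512). Pfkfb3 passed with the class term (log2 fold change 1.37, edgeR adjusted p = 0.0218) and over the 11 shallower libraries (1.65, edgeR adjusted p = 0.00955). In the same fits Pfkm, the muscle type of phosphofructokinase, was lower, at -0.42 with the class term (edgeR adjusted p = 0.0403) and -0.46 over the shallower libraries (edgeR adjusted p = 0.0339). With Hk1, 3 of the 15 passed with the class term (20%, beside 12.3% of all genes). The same 3 passed over the 11 shallower libraries (20%, beside 21.5% of all genes). Hk2 had a log2 fold change of 1.02 (edgeR adjusted p = 0.134) and Pfkfb4 one of 0.63 (edgeR adjusted p = 0.231).

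In citrate, acetyl-CoA and NADPH supply, 0 of 10 genes passed in edgeR over all 14 libraries, with 1 at an unadjusted p under 0.05. DESeq2 called 0 and limma-voom 2, beside 842 and 2739 of the 12166 genes tested. The median log2 fold change was 0.02. Those of smallest p were Pgd at 0.25, Me1 at 0.47, Pgls at -0.29 and Acss2 at 0.32, with edgeR adjusted p-values of 0.227 to 0.453. With the class term 0 of the 10 passed in edgeR, beside 12.3% of all genes. Over the 11 shallower libraries 2 passed (20%, beside 21.5% of all genes). These were Me1, higher at 0.66 (edgeR adjusted p = 0.0286), and Pgls, lower at -0.51 (edgeR adjusted p = 0.0229). The citrate carrier gene Slc25a1 had a log2 fold change of 0.01.

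In malonyl-CoA use, elongation and desaturation, 0 of 19 passed in edgeR over all 14 libraries, with 3 at an unadjusted p under 0.05. DESeq2 called 1 and limma-voom 3, beside 842 and 2739 of the 12166 genes tested. The median log2 fold change was 0.02. Acsl3, an acyl-CoA synthetase of lipid droplets, had one of -0.54 (SE 0.16, edgeR adjusted p = 0.0734), and Hacd3, an elongation-cycle dehydratase, one of -0.25 (edgeR adjusted p = 0.131). Oxsm had one of 0.25 and Hacd2 one of -0.16. With the class term 2 genes were called here (10.5%, beside 12.3% of all genes). These were Acsl3 at -0.48 (edgeR adjusted p = 0.0169) and Hacd3 at -0.22 (edgeR adjusted p = 0.0482), both lower. Over the 11 shallower libraries 5 passed (26.3%, beside 21.5% of all genes). Acsl3 at -0.51 and Hacd3 at -0.23 were lower there, while Elovl2, a fatty acid elongase, at 0.64 (edgeR adjusted p = 0.0266), Hsd17b12 at 0.41 (edgeR adjusted p = 0.0173) and Oxsm at 0.40 (edgeR adjusted p = 0.0125) were higher.

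Among regulators of lipogenic transcription, 1 of 26 rose, Nfyb, and 0 fell (3.85% called, beside 1.85% of all genes). Insig1, which holds SREBPs in the endoplasmic reticulum, had a log2 fold change of -0.71 (edgeR adjusted p = 0.0968), Usf1 one of -0.31 (edgeR adjusted p = 0.107) and Srebf2, the SREBP of cholesterol synthesis, one of 0.52 (edgeR adjusted p = 0.109). The lipogenic gene Thrsp had one of -0.01. With the class term 3 of the 26 passed (11.5%, beside 12.3% of all genes). Nfyb was higher, Usf1 lower at -0.34 (edgeR adjusted p = 0.0226), and Mlx, the partner with which ChREBP binds DNA, lower at -0.28 (edgeR adjusted p = 0.0354). Over the 11 shallower libraries 8 passed, 4 higher and 4 lower (30.8%, beside 21.5% of all genes). The higher ones were Nfyb, Srebf2 at 0.58 (edgeR adjusted p = 0.0108), Mbtps2 at 0.45 and Mlxip, which encodes the ChREBP paralogue MondoA, at 0.75 (edgeR adjusted p = 0.0393). The lower ones were Usf1 at -0.42 (edgeR adjusted p = 0.00413), Usf2 at -0.30, Nr1h3 at -0.20 and Mlx at -0.27 (edgeR adjusted p = 0.0475).

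Among glucose-responsive and lipogenic targets, 0 of 11 passed in edgeR over all 14 libraries, with 4 at an unadjusted p under 0.05. DESeq2 called 3 and limma-voom 5, beside 842 and 2739 of the 12166 genes tested. The median log2 fold change was 0.13. Arrdc4, a glucose-responsive target of MondoA and ChREBP, had one of 0.81 (SE 0.21, edgeR adjusted p = 0.0567), while Txnip, another such target, had one of 0.13. Angptl8, a feeding-induced secreted protein, had one of -0.62 (edgeR adjusted p = 0.0635). G6pc, which releases free glucose, had one of 0.87 (SE 0.30, edgeR adjusted p = 0.115), and Gpd1 one of 0.37 (edgeR adjusted p = 0.133). With the class term 2 passed (18.2%, beside 12.3% of all genes). Arrdc4 was higher at 0.87 (edgeR adjusted p = 0.0226) and Angptl8 lower at -0.64 (edgeR adjusted p = 0.0233). Over the 11 shallower libraries 4 passed (36.4%, beside 21.5% of all genes). Arrdc4 at 1.02, G6pc at 1.20 (edgeR adjusted p = 0.0471) and Gpd1 at 0.41 (edgeR adjusted p = 0.0222) were higher and Angptl8 at -0.78 lower.

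Over the 5 lists, the class term gave 10 calls among 81 genes, 4 higher and 6 lower, or 12.3% beside 12.3% of all genes. The 11 shallower libraries gave 22 calls, 13 higher and 9 lower, or 27.2% beside 21.5% of all genes. The count of 2 over all 14 libraries became 10 without DC371739 replicate 7, 6 without control replicate 7, 4 without DC371739 replicate 4, and 0 without DC371739 replicate 2 or 3. It became 1 when control replicate 1, 2, 3 or 4, or DC371739 replicate 1, 5 or 6, was left out. The count of 10 became 6 without control replicate 5, 19 without control replicate 7 and 21 without DC371739 replicate 7. The count of 22 became 11 without control replicate 2, 12 without control replicate 5, 13 without control replicate 3 or DC371739 replicate 5, and 14 without DC371739 replicate 3 or 6.

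Markers of cell types were read beside these results, with calls from the fit over all 14 libraries alone. Hepatocyte markers (11 of 12 with a row) summed to 116500 to 138000 CPM in DC371739 libraries and 116100 to 152400 CPM in control libraries, with 0 of 11 called and a median log2 fold change of -0.03. Macrophage markers (14 of 15 with a row) had a median log2 fold change of 0.36. Over all 14 libraries 3 of 14 rose (Laptm5, Ctss and Mpeg1), where 1.85% of all genes tested were called. Whether these calls hold with a library left out was not tested. Their sum was 940 to 1445 CPM in DC371739 libraries and 816 to 1236 CPM in control libraries. Summed CPM was 319 to 514 in DC371739 libraries and 246 to 364 in control libraries for stellate and fibroblast markers, with 0 of 10 called and the highest median log2 fold change of the 6 lists, 0.46. Endothelial markers summed to 251 to 341 CPM in DC371739 libraries and 199 to 309 CPM in control libraries, with 0 of 10 called and a median of 0.13. Cholangiocyte markers (5 of 6 with a row) summed to 19.6 to 40.0 CPM in DC371739 libraries and 17.6 to 27.0 CPM in control libraries, with 0 of 5 called and a median of 0.23. Only 3 of 8 adipocyte markers had a row, of which Pck1 is also a liver gene. These 3 summed to 612 to 1573 CPM in DC371739 libraries and 267 to 942 CPM in control libraries, with 0 of 3 called and a median of -0.17. Over all libraries Pck1 ran from 102 to 1455 CPM, while Cidec reached at most 88.9 CPM and Cfd at most 114 CPM. The upper end of this sum is therefore mostly Pck1 and does not measure adipocytes. No marker with a row was at 0 in all libraries, and the part of these cells in the values above was not tested.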

How the data were processed

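Liver RNA-seq of 14 libraries, 7 DC371739 and 7 control, was analysed from 2 deposited tables. For every sample, 2 preparation kits (TruSeq and NEBNext) are named in the labels. The submitters' processing notes list edgeR without a version, featureCounts 2.0.0 and HISAT2 2.2.1; no source used here gives their settings, the build, the annotation or the use of strand. The deposited counts, per the file headers, are whole-number counts per Ensembl gene (22283 genes). The second table holds the authors' FPKM, log2 fold changes, p-values and adjusted p-values for 10023 genes; from the values, each FPKM is the count over gene length and a constant per library.

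The test on counts was that of edgeR 4.0.16 under R 4.3.3 (quasi-likelihood F-test, robust, TMM, default filter with minimum count 10, treatment group alone, all 14 libraries), and Benjamini-Hochberg adjusted p-values under 0.05 over all genes tested were called. Standard errors are the log2 fold change over the square root of F. CPM are counts over the TMM-scaled library total times 1e+06, and log2 CPM used a prior count of 2. Correlations used 100000 permutations within groups, adjusted over 21 pairs of 7 genes, or over 81 genes for Acly. Intervals of depth are not given, since the replicate spread sets the error.

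The members, the lists and the split into deeper and shallower libraries were chosen with earlier results of these data known. Named genes were the members, the called genes and up to 4 genes by smallest p of each list, and the 3 genes most like Srebf1, Mlxipl and Pklr with a mean log2 CPM of at least 1. Further genes (Slc25a1, Thrsp, Txnip, those called only in the class fits and those that followed Acly) were named after their values were seen, and so was the Acly step. Alternatives were other scalings, filters, DESeq2 1.42.0, limma 3.58.1, FPKM, a replicate block, library class and left-out libraries; leaving out each library within the class fits was chosen after seeing the data. Of 42 pairs of libraries within groups, chi-square over its degrees of freedom was 10.59 or more, so none was counted as a duplicate. Reads shared by near-identical genes cannot be told apart in these counts.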

Additional observations from a re-analysis of the deposited data

Results flagged for a closer look

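Mlxipl in DC371739 replicate 7 was far from the other libraries of its group, at 199.5 CPM beside a next value of 431 CPM, in 1 of 14 groups of libraries looked at, where chance alone flags about 1 in 20. It is the deeper library of that group. The 2 deeper control libraries, at 214 and 184 CPM, lay near it.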

How the results depend on the processing

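Over all genes, the 225 calls (151 higher, 74 lower) became 842 with DESeq2, 2739 with limma-voom, 1499 with class as a term, 2635 on the 11 shallower libraries, 8 with the replicate block, and 25 to 1069 with each library left out. That count was 106, 73, 53 and 63 without control replicates 1, 2, 3 and 5, 542 without control replicate 7, and 51, 25, 77, 25 and 1069 without DC371739 replicates 2, 3, 5, 6 and 7. The split was 223 higher and 65 lower with upper-quartile scaling, 124 and 36 with library size alone, 138 and 46 without a filter, and 509 and 333 with DESeq2. The 1499 fell to 593 without control replicate 5, and to 739 to 886 when control replicate 2 or 3, or any of DC371739 replicates 2, 3, 5 and 6, was left out, and became 2741 without DC371739 replicate 7; the 2635 fell to 1747 without control replicate 2 and 1624 without control replicate 5. The 2 pathway calls became 1 without a filter, 8 with DESeq2, 20 with limma-voom, 10 with class as a term, 22 on the 11 shallower libraries, 0 with the replicate block (Nfyb then had an edgeR adjusted p of 0.0571, and Hk1 was also lost), and 0 to 10 with each library left out. The cause was not tested. Of 7 replicate numbers, 2 correlated above 0.1 between groups (range -0.13 to 0.55), and 1 of 7 controls correlated best with its own number. The 0.55 is that of replicate 7, a deeper library in both groups. Since depth class enters these correlations, they cannot decide whether the numbers pair the samples. No pair of the 7 genes passed adjustment under any alternative run. The sign of each of the 7 fold changes was kept under all 13 other settings run; with 1 library left out, that of Srebf1 turned over all 14 libraries (without control replicate 4 or DC371739 replicate 7), and that of Acly with class as a term (without DC371739 replicate 5).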
